A study of Mus musculus with 6 samples.

Results

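Transcripts of fibronectin and of 9 matricellular proteins were followed in the mouse thoracic aorta on 6 Illumina expression BeadChips. The 10 genes were Fn1, Tnc, Sparc, Spp1, Thbs1, Thbs2, Thbs3, Postn, Ccn1 (listed on the array as Cyr61) and Ccn2 (listed as Ctgf), and every probe annotated to them was taken. There were 27 such probes among the 45281 on the array. They covered 9 of the 10 genes, since Spp1, which encodes osteopontin, had no probe assigned in the annotation used here. A probe was kept when its detection p was under 0.01 on at least 2 of the 6 arrays, which left 21 of the 27 probes, still of 9 genes, among 16749 probes kept on the whole array. The 6 probes not kept were 2 of 4 for Fn1 and 4 of 7 for Tnc.

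The mice were 12 weeks old at the start, on a C57 Bl/6 background, and were either wild-type littermates (WT) or TG SM-CaMKIIN (TG), which express CaMKIIN, a peptide inhibitor of the calcium/calmodulin-dependent kinase CaMKII, only in smooth muscle. Which promoter drives the transgene is not stated in the labels. Implanted osmotic minipumps delivered either normal saline or a dose of 1.25 ug/kg/min of angiotensin II (Ang-II) in saline over 14 days. The design speaks of 5 mice a group with their RNA pooled by group, whereas the titles name the paired Ang-II arrays of each genotype as biological replicates. Each saline group had 1 array and each Ang-II group had 2. P-values therefore measure only the spread between the arrays of the Ang-II groups, which may be technical. The saline groups, with no replicate of their own, borrow that spread.

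Fibronectin is a matrix glycoprotein that links integrins on the cell surface to collagen and to other matrix proteins, and it is laid down early when a tissue is injured. Matricellular proteins (tenascin C, SPARC, thrombospondins, periostin, osteopontin and the CCN proteins) are secreted into the matrix but mainly regulate cells, growth factors and matrix assembly rather than bear load. In arteries they are made by smooth muscle cells, adventitial fibroblasts and invading leukocytes, and several are known as targets of TGF-beta, of the YAP and TAZ co-activators or of serum response factor. The comparisons ask how Ang-II, a vasoconstrictor hormone, changed these transcripts and whether the response differed when CaMKII was inhibited in smooth muscle.

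Between 34.0% and 35.5% of probes were detected on each array, and the array pairs of WT Ang-II and TG Ang-II correlated at r = 0.991 and r = 0.990 over all probes, with SDs of their log2 differences of 0.28 and 0.30. The kept probes of the members were read from 22 to 73 beads an array (median 41), with a standard error over beads of 2.55% to 9.55% of the intensity (median 5.37%). All 6 markers of smooth muscle were detected, with a summed normalized signal between 64542 and 81228 over the 6 arrays, highest in both saline arrays. In a whole-tissue extract, fewer cells of a type and less RNA per cell cannot be told apart. Markers of other cell types were read at unequal levels: the summed signal of 6 heart muscle markers was 1361 and 1445 in WT Ang-II, 1899 and 2588 in TG and WT saline, and 9451 and 9176 in TG Ang-II.

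Transcripts of Tnc, Sparc, Thbs1 and Thbs2 rose with Ang-II in the aorta of WT mice. In TG aorta, Tnc, Thbs1 and Thbs2 rose as well, a different Sparc probe passed, and Ccn1 fell on all 3 of its probes. Under Ang-II, Ccn1 and Fn1 were lower in TG than in WT. No member passed in the saline comparison or in the test of whether both responses differed. Values are log2 signals after background correction and quantile normalization, differences come with the standard error (SE) that limma estimated, and the call threshold was an adjusted p under 0.05 (Benjamini-Hochberg, over all 16749 probes). Each gene is represented by its brightest kept probe, and its other kept probes are given beside it.

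By probe, 6 of 21 rose and 0 fell in WT, against 6.35% rising and 2.72% falling over all kept probes (9.06% in either direction). At an unadjusted limma p under 0.05 the counts were 9 higher and 0 lower. In TG, 4 rose and 3 fell, against 5.84% and 1.73% over all probes (7.57% in either direction). By gene, 4 of 9 rose in WT and 3 of 9 rose in TG with 1 falling, while 8.72% and 6.78% of 9837 genes passed in either direction. The median log2 difference over the 9 genes was 0.62 in WT and 0.19 in TG, beside medians over all genes of -0.05 and -0.06. Averaged over both genotypes, 7 probes rose and 2 fell, against 11.6% and 7.55% of all probes (19.2% in either direction), and 4 genes rose and 1 fell, against 17.5% of all genes. This average shares its arrays with the separate responses. Thbs1 entered these counts only because its probe was detected on the Ang-II arrays. The same holds for Tnc probe ILMN_2485085, detected only in WT Ang-II, and for Postn probe ILMN_2493114. This Tnc probe is among the 9 that were higher in WT at an unadjusted limma p. The filter thus favours a rise for these probes.

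**Figure D1:**
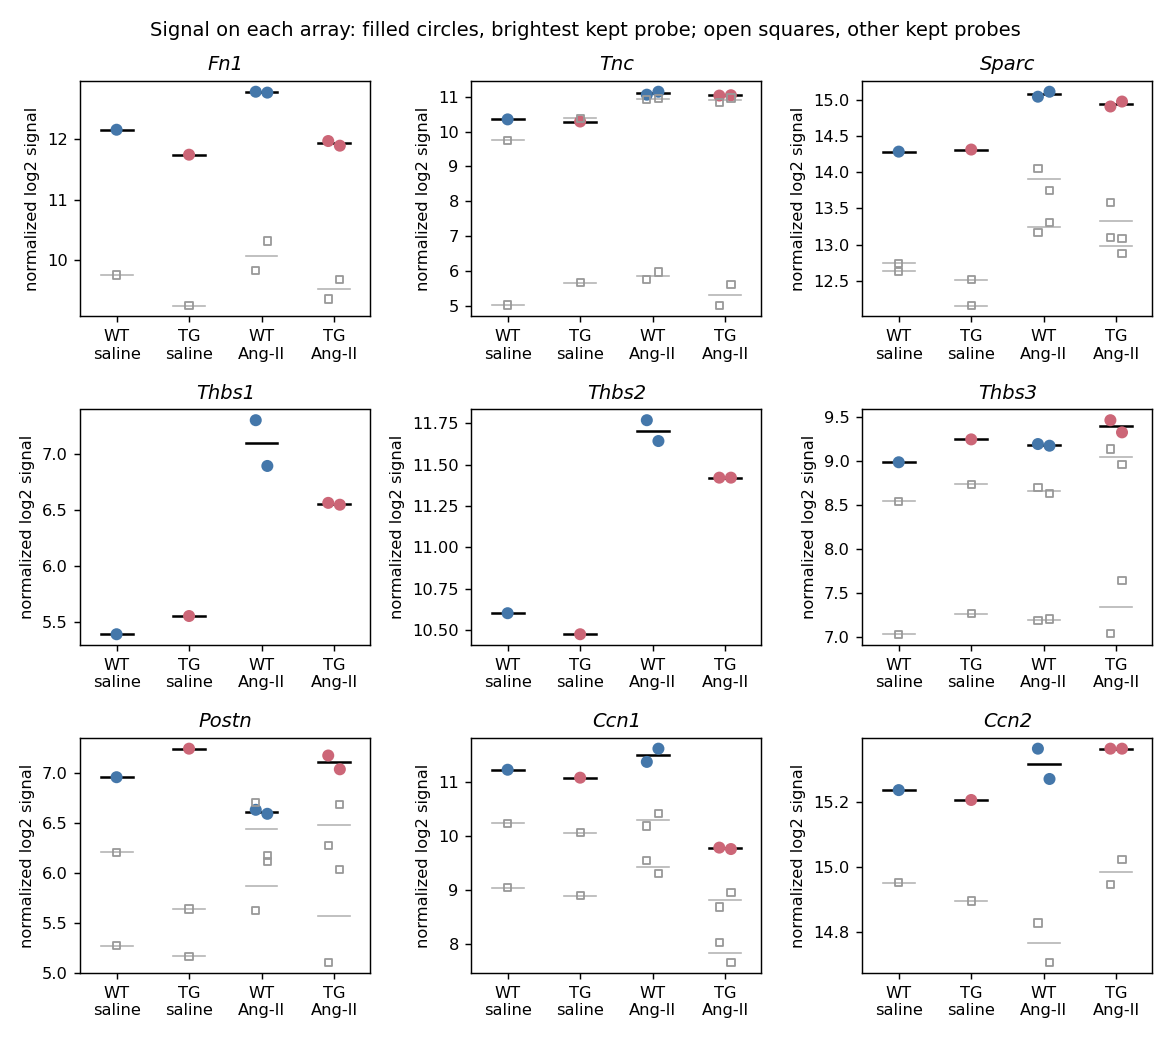
Normalized log2 signal of the 9 measured genes in the 4 groups, with a point for each array and a bar at each group mean. Filled circles are the brightest kept probe of the gene (blue WT, red TG) and open grey squares its other kept probes. Ccn1 in TG Ang-II lies below the other groups on each of its 3 probes, and each panel has its own axis, which does not start at 0.

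Fibronectin was read most brightly by Fn1 probe ILMN_2595714. Its log2 signal was 12.15 and 11.74 on the saline arrays of WT and TG, 12.78 and 12.76 on those of WT given Ang-II, and 11.97 and 11.89 on those of TG given Ang-II. The pair of WT Ang-II arrays was highest, the TG Ang-II pair lay between the saline arrays, and no group overlapped another. The Ang-II difference in WT was 0.62 ± 0.15 (SE) and did not pass, with an adjusted p of 0.0611 from limma. In TG it was 0.19 ± 0.15, with an adjusted p of 0.498. Under Ang-II, TG was lower than WT by 1.79-fold (-0.84 ± 0.12), and this passed with an adjusted p of 0.0203. The difference under saline was -0.41 ± 0.17 and did not pass (adjusted p 0.376). The interaction, the TG response minus the WT response, was -0.43 ± 0.21, with an adjusted p of 0.453.

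The second kept Fn1 probe, ILMN_2588227, read 9.76 and 9.25 under saline (WT, then TG), 9.84 and 10.32 with Ang-II in WT, and 9.36 and 9.69 with Ang-II in TG. Here too the TG arrays lay below the WT arrays, although the Ang-II pairs spread more widely. Its genotype difference under Ang-II, -0.55 ± 0.21, did not pass (adjusted p 0.203). The call on the brighter probe was lost when any of the 4 Ang-II arrays was left out, with adjusted p-values from 0.0592 to 0.135 and a log2 difference that stayed between -0.88 and -0.80 over all 12 alternatives. The WT difference of 0.62 passed in 4 of 11 alternatives. Several marker sets parted the genotypes under Ang-II in the same arrays, where 5.35% of all genes passed. Signal of heart muscle markers was several times higher in TG Ang-II than in WT Ang-II, as given above, and that of 2 skeletal muscle markers was 2287 and 2128 in TG against 57 and 50 in WT, with both passing. The endothelial sum was 8004 and 7901 in TG against 5732 and 5640 in WT, with 1 of 6 markers passing as higher. The sum of 5 erythroid markers, all of which passed, was lower in TG (47041 and 52162 against 92337 and 91526). Brown adipocyte markers were also lower (10253 and 10631 against 16189 and 16507, with 2 of 3 passing), as were adipocyte markers (5730 and 5038 against 7288 and 7940, with 2 of 4 passing). Their part in the Fn1 difference was not tested.

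Tenascin C, a large glycoprotein that is low in resting adult arteries and appears in remodelling ones, was read by 3 kept probes. On Tnc probe ILMN_2463181 the log2 signal was 10.35 (WT saline) and 10.29 (TG saline), then 11.06 and 11.14 on the WT Ang-II arrays and 11.03 and 11.04 on the TG Ang-II arrays. All 4 Ang-II arrays lay above both saline arrays, with the genotypes close together. The rise was 0.75 ± 0.15 in WT (1.68-fold, adjusted p 0.0395) and 0.75 ± 0.15 in TG (1.68-fold, adjusted p 0.0441). Under Ang-II the genotypes differed by -0.06, with a 95% interval from -0.37 to 0.24.

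Tnc probe ILMN_2463180 read 9.75 and 10.38 under saline (WT, then TG), 10.93 and 10.96 with Ang-II in WT, and 10.84 and 10.97 with Ang-II in TG. On this probe the saline arrays stood apart, and Tnc rose by 1.19 ± 0.16 in WT (adjusted p 0.0124), while the TG difference of 0.52 ± 0.16 did not pass (adjusted p 0.110). The remaining, dim probe ILMN_2485085 was above background on 2 arrays, both of WT Ang-II, and ranged from 5.00 to 5.97. It passed in neither genotype. The TG response minus the WT response was -0.0016 on the brightest probe, -0.67 ± 0.22 on ILMN_2463180 and -1.20 ± 0.39 on ILMN_2485085. None of these interactions passed in limma (adjusted p 0.998, 0.264 and 0.264), and the probes differed in its size. Averaged over both genotypes, the rise on the brightest probe was 0.75 ± 0.11 (adjusted p 0.00954) and passed in 11 of 11 alternatives, while the WT and TG rises each passed in 5 of 11. With any 1 Ang-II array left out, their adjusted p-values were 0.0524 to 0.137 in WT and 0.0890 to 0.0993 in TG.

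SPARC (osteonectin), which binds collagen and is involved in its assembly, was far above background on every array. Sparc probe ILMN_3136561 read 14.28 and 14.31 on the saline arrays of WT and TG, 15.04 and 15.11 on those of WT given Ang-II, and 14.91 and 14.97 on those of TG given Ang-II. The 4 Ang-II arrays lay above both saline arrays, and both WT Ang-II arrays lay above both TG Ang-II arrays. The rise was 0.79 ± 0.15 in WT (1.73-fold, adjusted p 0.0354), and the TG difference of 0.63 ± 0.15 did not pass (adjusted p 0.0688). The WT call was lost without WT Ang-II 1 (0.83, adjusted p 0.115) or WT Ang-II 2 (0.76, adjusted p 0.129). The genotype difference under Ang-II was -0.14 on this probe, with a 95% interval from -0.44 to 0.17. On the other kept probes it was -0.57 (-1.09 to -0.05) for ILMN_3059326 and -0.25 (-0.61 to 0.10) for ILMN_1243212. Neither passed in limma (adjusted p 0.197 and 0.375).

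The other Sparc probes gave the same direction with Ang-II, ILMN_3059326 with the same calls as the brightest probe and ILMN_1243212 with other calls. ILMN_3059326 rose by 1.27 ± 0.26 in WT (adjusted p 0.0407), and its TG difference was 0.81 ± 0.26 (adjusted p 0.127). ILMN_1243212 differed by 0.50 ± 0.18 in WT (adjusted p 0.139) and rose by 0.83 ± 0.18 in TG (adjusted p 0.0484). Each probe thus passed in 1 genotype. In the average of both genotypes all 3 passed, at 0.71 ± 0.11, 1.04 ± 0.18 and 0.66 ± 0.12, with adjusted p-values of 0.0114, 0.0170 and 0.0197.

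Thrombospondin-1, a calcium-binding glycoprotein that activates latent TGF-beta and binds CD36 and CD47, was above background only with Ang-II. Thbs1 probe ILMN_2659151 read 5.39 in WT saline and 5.55 in TG saline, neither above background, then 7.30 and 6.89 with Ang-II in WT, and 6.56 and 6.55 with Ang-II in TG. The WT Ang-II pair was highest and the TG Ang-II pair lay between it and the saline arrays. Against the lowest signal detected on the saline array, Thbs1 was at least 2.77-fold higher with Ang-II in WT and at least 1.85-fold higher in TG, with adjusted p-values of 0.0108 and 0.0467. The genotype difference under Ang-II was -0.54 ± 0.17 (adjusted p 0.141) and did not pass. Without background correction the log2 differences shrank to 0.78 in WT and 0.42 in TG. The TG rise passed in 4 of 10 alternatives, with adjusted p-values from 0.0532 to 0.0953 when any 1 Ang-II array was left out, and the WT rise in 10 of 10.

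Thrombospondin-2, a relative of thrombospondin-1 that inhibits angiogenesis and shapes collagen fibrils, was well above background throughout. Thbs2 probe ILMN_2635229 read 10.60 (WT saline) and 10.48 (TG saline), then 11.77 and 11.64 on the WT Ang-II arrays and 11.42 and 11.42 on the TG Ang-II arrays. The groups did not overlap, with the order WT Ang-II, TG Ang-II, WT saline and TG saline. The rise was 2.15-fold in WT (1.10 ± 0.16, adjusted p 0.0148) and 1.93-fold in TG (0.95 ± 0.16, adjusted p 0.0256). Neighbours in that order within a treatment did not pass: the genotype difference was -0.28 ± 0.13 under Ang-II (adjusted p 0.265), with a 95% interval from -0.60 to 0.03. The average rise, 1.02 ± 0.11, passed in 11 of 11 alternatives (adjusted p 0.00452). The rise in WT was lost without WT Ang-II 1 (adjusted p 0.0797) or WT Ang-II 2 (0.0681), and that in TG without any 1 of the 4 Ang-II arrays (0.0593 to 0.0646).

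Markers of several other cell types moved with these rises. Over all genes, 8.72% passed in WT and 6.78% in TG in either direction. Of 7 fibroblast markers, 4 rose in WT and 2 in TG, and their summed signal went from 49004 and 54621 in the WT and TG saline arrays to 76039 and 72582 with Ang-II in WT, and 80601 and 78023 with Ang-II in TG. Of 10 measured macrophage markers, 7 rose in WT and 7 in TG, with summed signals of 6670 and 5397 under saline and between 10858 and 13325 under Ang-II. Of 6 smooth muscle markers, 2 fell in WT and 0 passed in TG. Their sum was lower under Ang-II, from 81228 to 65572 and 64542 in WT, and from 75856 to 70778 and 73071 in TG. Erythroid markers rose in WT, 5 of 5, with a sum of 24392 under saline and 92337 and 91526 with Ang-II, and 0 of 5 passed in TG (43943, then 47041 and 52162). Brown adipocyte markers rose in WT, 3 of 3, from 4082 to 16189 and 16507, and 0 of 3 passed in TG (8772, then 10253 and 10631). Of 4 adipocyte markers, 3 rose in WT, where the sum went from 2443 to 7288 and 7940, and in TG 0 rose and 1 fell (4194, then 5730 and 5038). The part of these cell types in the rises of Tnc, Sparc, Thbs1 and Thbs2 was not tested.

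The promoters of the rising genes Tnc, Sparc and Thbs2 are shown because these genes moved together. They come from RefSeq (GRCm38.p6) and hold 250 bases before and 50 after an annotated start, so that each spans the first bases of the gene's first exon. All 3 lie on the minus strand and are written 5′ to 3′ along the gene. The windows are chr4:64046966-64047265 for the outermost of both Tnc starts listed, chr11:55420031-55420330 for Sparc and chr17:14694213-14694512 for Thbs2. Capitals mark a match to any of 5 motifs searched on both strands: the TEAD core GGAATG, the AP-1 site TGANTCA, the cyclic AMP response element TGACGTCA, the CArG box of serum response factor, and the TATA box TATAAA.
Tnc promoter: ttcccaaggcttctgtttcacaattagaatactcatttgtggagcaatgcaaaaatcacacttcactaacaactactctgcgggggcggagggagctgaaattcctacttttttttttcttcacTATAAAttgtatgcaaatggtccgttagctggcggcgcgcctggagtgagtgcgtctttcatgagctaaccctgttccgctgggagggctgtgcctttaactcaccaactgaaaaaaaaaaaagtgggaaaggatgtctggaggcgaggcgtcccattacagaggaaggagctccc
Sparc promoter: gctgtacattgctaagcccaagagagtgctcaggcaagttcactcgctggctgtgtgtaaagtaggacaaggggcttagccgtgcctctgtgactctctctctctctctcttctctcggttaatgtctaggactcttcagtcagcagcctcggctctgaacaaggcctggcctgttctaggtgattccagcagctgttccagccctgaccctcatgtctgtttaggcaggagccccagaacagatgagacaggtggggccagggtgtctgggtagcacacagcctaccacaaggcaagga
Thbs2 promoter: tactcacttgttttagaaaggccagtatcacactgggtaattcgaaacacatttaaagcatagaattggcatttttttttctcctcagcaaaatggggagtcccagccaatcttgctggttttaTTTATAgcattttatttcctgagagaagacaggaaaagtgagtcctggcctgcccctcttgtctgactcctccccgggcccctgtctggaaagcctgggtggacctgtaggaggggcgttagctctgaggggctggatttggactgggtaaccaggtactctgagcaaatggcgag
Each of the Tnc and Thbs2 windows held a TATA box match at bases -126 to -121 from the start, on the gene's strand in Tnc and on the opposite strand in Thbs2, and none of the other motifs. The Sparc window held none of the 5. Of 32851 promoters of the same length, 13.6% held the TATA box letters.

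**Figure D2:**
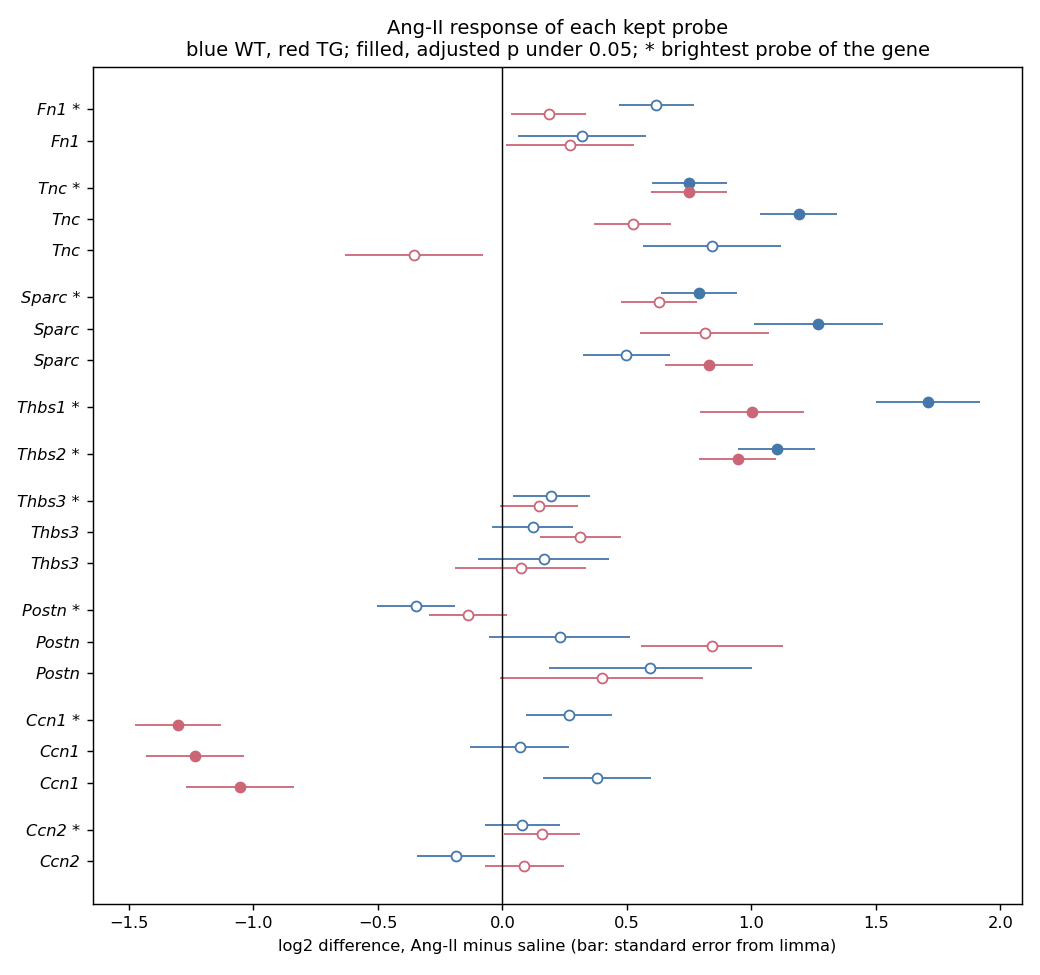
Log2 difference between Ang-II and saline for the 21 kept probes, in WT (blue) and TG (red), with bars for the standard error from limma. Filled points passed at an adjusted p under 0.05 and asterisks mark the brightest probe of a gene. Tnc, Sparc, Thbs1 and Thbs2 lie to the right of 0 in both genotypes except for the dim Tnc probe, and the 3 Ccn1 probes lie left of 0 in TG only.

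Thrombospondin-3, of the thrombospondin subgroup that lacks the TGF-beta-activating repeats, passed in no comparison. Thbs3 probe ILMN_2654651 read 8.99 and 9.25 on the saline arrays of WT and TG, 9.20 and 9.18 on those of WT given Ang-II, and 9.47 and 9.33 on those of TG given Ang-II. Its Ang-II differences were 0.20 in WT and 0.15 in TG, with 95% intervals from -0.19 to 0.58 and from -0.24 to 0.54. The other kept Thbs3 probes read between 8.54 and 9.14 and between 7.03 and 7.64 and did not pass either.

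Periostin, a matrix protein of activated fibroblasts that binds collagen and fibronectin, was dim, and its probes disagreed. Postn probe ILMN_2766028 read 6.96 (WT saline) and 7.25 (TG saline), then 6.63 and 6.59 on the WT Ang-II arrays and 7.18 and 7.04 on the TG Ang-II arrays. Its Ang-II difference was -0.35 in WT and -0.14 in TG, while ILMN_1216882 gave 0.23 and 0.84 and ILMN_2493114 gave 0.59 and 0.40. None of these passed in limma, with adjusted p-values from 0.143 to 0.640. No direction can be given for Postn. The probe ILMN_2493114 was above background on 3 arrays only.

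CCN2 (connective tissue growth factor), a secreted TGF-beta and YAP target that binds integrins and growth factors, was at the top of the measuring range. Ccn2 probe ILMN_2909150 was the brightest of all 45281 probes on 3 arrays (WT Ang-II 1 and both TG Ang-II arrays) and ranked 4th to 6th on the others. Quantile normalization gives the brightest probe of every array the same value, here 15.36, and Ccn2 read 15.24 and 15.21 on the saline arrays of WT and TG, 15.36 and 15.27 on those of WT given Ang-II, and 15.36 and 15.36 on those of TG given Ang-II. No value above 15.36 was possible, so a further rise could not have been read from this probe. The deposited intensities before normalization were 44525 (WT saline) and 38572 (TG saline), then 43451 and 37914 on the WT Ang-II arrays and 38507 and 40964 on the TG Ang-II arrays, in which the groups overlapped. The second probe, ILMN_1238215, ranked between 15 and 41 and read 14.95, 14.89, 14.83, 14.70, 14.94 and 15.02 in the same order. Its Ang-II differences were -0.19 in WT and 0.09 in TG, neither of which passed (adjusted p 0.488 and 0.773).

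CCN1 (CYR61), the closest relative of CCN2 among the members and an immediate early gene that is induced by stretch, by serum response factor and by YAP, fell with Ang-II in TG aorta. Ccn1 probe ILMN_2794645 read 11.22 and 11.08 on the saline arrays of WT and TG, 11.37 and 11.61 on those of WT given Ang-II, and 9.79 and 9.76 on those of TG given Ang-II. The TG Ang-II arrays stood apart below all others, and the other 4 arrays lay between 11.08 and 11.61. With Ang-II, Ccn1 fell 2.47-fold in TG (-1.30 ± 0.17, adjusted p 0.0144), the 48th lowest difference of 16749 probes. In WT the difference was 0.27 ± 0.17 and did not pass (adjusted p 0.369). Under Ang-II, TG was 3.28-fold lower than WT (-1.72 ± 0.14, adjusted p 0.00360), the 22nd lowest of all probes. Under saline the genotypes differed by -0.15, with a 95% interval from -0.64 to 0.35 (adjusted p 0.815).

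The other Ccn1 probes moved in step. ILMN_1235571 read 10.23 and 10.06 under saline (WT, then TG), 10.18 and 10.42 with Ang-II in WT, and 8.69 and 8.97 with Ang-II in TG. ILMN_2710253 read 9.05 and 8.90, then 9.55 and 9.30, then 8.03 and 7.66 in the same order. Both were lowest in TG Ang-II, with no overlap with any other group. Their falls in TG were -1.23 ± 0.20 (adjusted p 0.0244) and -1.05 ± 0.22 (adjusted p 0.0455), and their genotype differences under Ang-II were -1.47 ± 0.16 (2.78-fold, adjusted p 0.00869) and -1.58 ± 0.18 (2.99-fold, adjusted p 0.00935). Probes of a gene are read from the same RNA and are not replicates. The fall in TG passed in 11 of 11 alternatives, and the genotype difference under Ang-II in 12 of 12, with a highest adjusted p of 0.0408.

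The deposited intensities showed the same gap before any normalization. Probe ILMN_2794645 of Ccn1 stood at 3207 (WT saline) and 2420 (TG saline), then 2654 and 3013 on the WT Ang-II arrays and 841 and 809 on the TG Ang-II arrays. The bead standard errors of this probe were between 46.7 and 213. The test of the difference between both responses, which carries the error of both lone saline arrays, gave -1.57 ± 0.24 for Ccn1, with an unadjusted p of 0.000793 and an adjusted p of 0.0576. It did not pass, nor did the other probes (-1.30 and -1.43, adjusted p 0.117 and 0.116). It passed in 4 of 11 alternatives, with adjusted p-values from 4.72e-05 to 0.172 over all of them. Beside this fall, all 6 measured heart muscle markers were higher in TG Ang-II than in WT Ang-II, where Tnnt2, also listed, had no named probe on the array, and Myh6, which was not above background in WT Ang-II, at least 37.8-fold higher. The 5 erythroid markers were all lower. The part of other tissue in the Ccn1 difference was not tested.

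**Figure D3:**
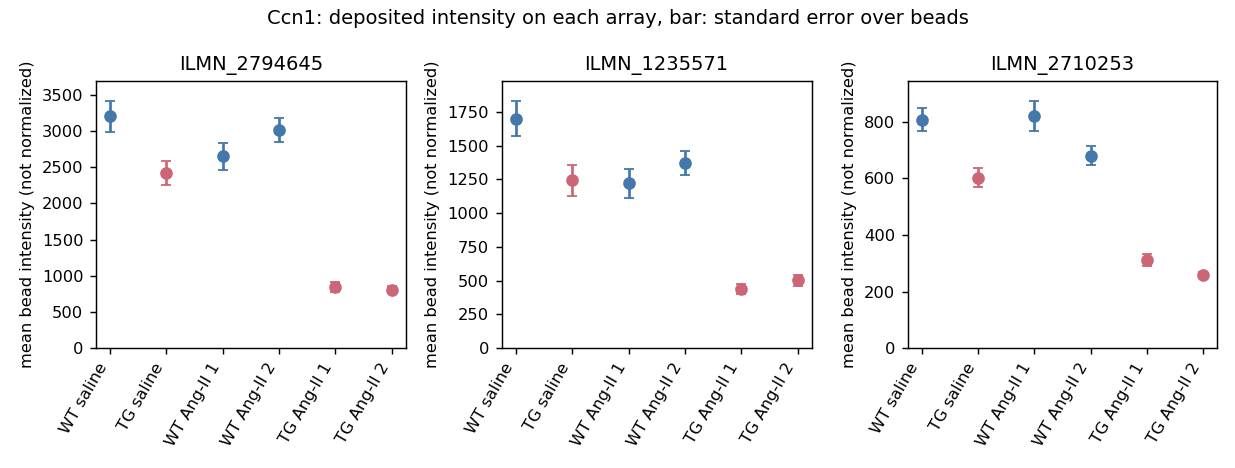
Deposited mean bead intensity of the 3 Ccn1 probes on each of the 6 arrays, before normalization, with bars for the standard error over beads (blue WT, red TG, axes from 0). Both TG Ang-II arrays stand lowest on every probe, at 841 and 809 against 2420 to 3207 on the brightest.

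The promoter of Ccn1 is shown for comparison with those of the genes that rose. It is the RefSeq window chr3:145649936-145650235 of GRCm38.p6, minus strand, again from 250 bases before to 50 after the start, with motif matches in capitals.
Ccn1 promoter: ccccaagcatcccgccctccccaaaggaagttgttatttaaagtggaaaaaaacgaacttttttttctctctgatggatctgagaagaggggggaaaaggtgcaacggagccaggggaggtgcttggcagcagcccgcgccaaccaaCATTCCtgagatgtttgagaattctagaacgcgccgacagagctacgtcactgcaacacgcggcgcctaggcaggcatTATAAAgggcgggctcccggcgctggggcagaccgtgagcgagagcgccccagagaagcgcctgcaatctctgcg
It held the TEAD core on the opposite strand, as CATTCC, at bases -103 to -98, and a TATA box match at -25 to -20. TEAD factors are the DNA-binding partners of YAP and TAZ. The TEAD core letters were in 14.7% of the 32851 promoters, so a match is a description of the sequence and not evidence of binding. Promoters of Fn1, Thbs1 and Ccn2 are not shown.

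Between genotypes under Ang-II, 0 of 21 member probes were higher and 4 were lower in TG, all of Ccn1 and Fn1, against 2.73% and 2.55% of all probes (5.28% in either direction). At an unadjusted limma p under 0.05, 2 were higher and 7 lower. By gene, 2 of 9 were lower, and 5.35% of all genes passed in either direction. Under saline, 0 of 21 passed, against 0.185% of all probes and 0.163% of all genes, with 1 probe higher and 1 lower at an unadjusted p. In the interaction 0 of 21 passed, against 1.19% of all probes and 1.26% of all genes, with 0 higher and 5 lower at an unadjusted p. The saline and interaction comparisons rest on the lone saline arrays, and their median SEs over all probes were 0.21 and 0.25 on the log2 scale.

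**Figure D4:**
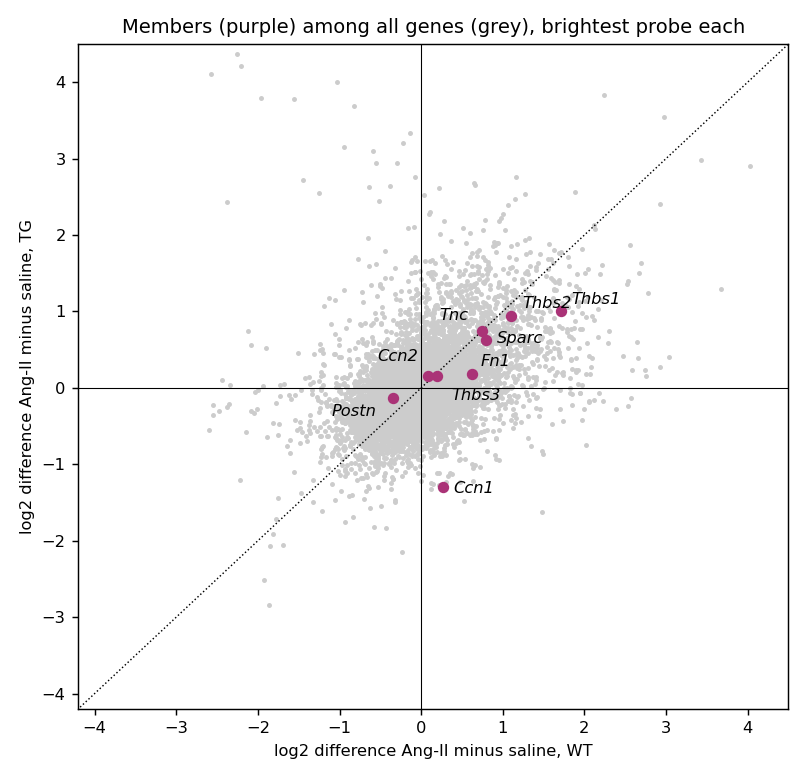
Log2 difference between Ang-II and saline in WT (horizontal) against TG (vertical), a point for each of 9837 genes by its brightest kept probe, with the 9 members in purple and the line of equal response dotted. Ccn1 lies far below the line, at 0.27 in WT and -1.30 in TG, and Tnc lies on it, while 7 genes fall outside the axes.

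Genes with the most similar profile were found for the 4 members that spanned at least 1 on the log2 scale over the arrays, by the root mean square difference of profiles centred on their own means, over 6 arrays and 9611 genes. For Ccn1 the nearest included Cdkn2b, a cell cycle inhibitor, at 0.176, and Atf3, a stress-induced transcription factor, at 0.244. Only 1 gene lay within 0.2 of Ccn1. Atf3 read 8.82 and 8.64 under saline (WT, then TG), 9.48 and 9.21 with Ang-II in WT, and 7.13 and 7.19 with Ang-II in TG, again lowest in TG Ang-II. For Fn1 they were Gfpt1 at 0.0825, Igfbp2 at 0.0873 and Tent5a at 0.0959, with 98 genes within 0.2. For Thbs2 they were Hsd17b11 at 0.0347, Srpx2 at 0.0413 and Slit2 at 0.0496, with 144 within 0.2. For Thbs1 they were Brinp1 at 0.113, Myo1f at 0.115 and Pld4 at 0.141, with 20 within 0.2. The profiles share the same 6 arrays, and with so few arrays this likeness is a description only.

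Relatives of the members (other CCN, tenascin, thrombospondin and SPARC family genes and further matricellular proteins) were read through 15 kept genes of 23 listed. In WT, 2 rose and 0 fell (6 and 0 at an unadjusted p), with a median log2 difference of 0.35. In TG, 3 rose and 1 fell, with a median of 0.08. Over all genes, 8.72% passed in WT and 6.78% in TG in either direction, with medians of -0.05 and -0.06. Ccn4, a CCN protein that is a target of WNT signalling, read 8.45 and 8.27 under saline (WT, then TG), 10.43 and 10.46 with Ang-II in WT, and 9.62 and 9.93 with Ang-II in TG. The rise was 2.00 ± 0.19 on the log2 scale in WT (adjusted p 0.00539). In TG it was smaller, at 2.82-fold on the linear scale (adjusted p 0.0120). Its second kept probe, ILMN_2453775, rose by 1.30 in WT (adjusted p 0.0248), and its TG difference of 0.60 did not pass (adjusted p 0.166). That probe read 4.43 and 4.83 under saline (WT, then TG), below the lowest detected signals of 5.63 and 5.67. It was thus kept only through the Ang-II arrays, and the filter favours a rise for it. Vtn (vitronectin, named after its values were seen) read 5.06 in WT saline and 4.83 in TG saline, neither above background. The filter thus favours a rise for Vtn too. It was the other gene that rose in WT, at least 1.24-fold higher (adjusted p 0.0455). This call passed in 4 of 10 alternatives and was lost when either WT Ang-II array was left out (adjusted p 0.114 and 0.152). Comp, the cartilage thrombospondin, differed by 0.51 ± 0.18 in WT (adjusted p 0.133) and rose by 1.04 ± 0.18 in TG (adjusted p 0.0280). Its other kept probe, ILMN_2869110, gave 0.95 in WT (adjusted p 0.0520) and rose by 1.33 in TG (adjusted p 0.0247), and on it Comp was also higher in TG than in WT under Ang-II, by 0.95 ± 0.18 (adjusted p 0.0408). Tnxb, the tenascin of loose connective tissue, differed by 0.67 ± 0.15 in WT (adjusted p 0.0530) and rose by 1.27 ± 0.15 in TG (adjusted p 0.0113). Its other kept probes rose in TG by 1.19 and 1.78 (adjusted p 0.0323 and 0.00636), and of these ILMN_2973958 also rose in WT, by 0.76 (adjusted p 0.0399), while the other gave 0.55 there (adjusted p 0.161). Spock2, a proteoglycan related to SPARC, fell by 0.98 ± 0.19 in TG (adjusted p 0.0386), while its other kept probe gave -0.48 ± 0.44 (adjusted p 0.553). On their brightest probes, 0 of the 15 passed between genotypes or in the interaction in limma. At an unadjusted p, the counts higher and lower were 2 and 2 with Ang-II, 3 and 1 with saline, and 1 and 0 for the interaction. For comparison, 5.35% of all genes passed between genotypes with Ang-II, 0.163% did so with saline, and 1.26% passed for the interaction. With any 1 of the 4 Ang-II arrays left out, the TG calls of Comp (adjusted p 0.0528 to 0.0638) and Spock2 (0.0599 to 0.0904) were lost.

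Receptors and partners (integrin subunits, syndecans, scavenger and collagen receptors and processing enzymes) were read through 19 of 21 genes. In WT, 4 rose and 1 fell, with a median of -0.05. In TG, 3 rose and 0 fell (5 and 0 at an unadjusted p), with a median of 0.08. Of all genes, 8.72% passed in WT and 6.78% in TG in either direction, with medians of -0.05 and -0.06. Itga5, the alpha subunit of the main fibronectin receptor, moved in opposite directions. It read 10.40 and 9.44 on the saline arrays of WT and TG, 9.47 and 9.49 on those of WT given Ang-II, and 10.16 and 10.30 on those of TG given Ang-II. The WT saline array was as high as the TG Ang-II arrays and the TG saline array as low as the WT Ang-II arrays. Itga5 fell by 0.92 ± 0.16 in WT (adjusted p 0.0264) and rose by 0.79 ± 0.16 in TG (adjusted p 0.0431), and the responses differed by 1.70 ± 0.22 (adjusted p 0.0368). On its other kept probe the WT difference of -0.80 did not pass (adjusted p 0.0503), the TG rise was 1.23 (adjusted p 0.0186) and the responses differed by 2.03 (adjusted p 0.0315). These calls depend on the lone saline arrays, and the interaction was lost when any 1 Ang-II array was left out (adjusted p 0.0585 to 0.162), as were the TG rise (0.0737 to 0.102) and, when either WT Ang-II array was left out, the WT fall (0.106 and 0.108).

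Ddr2, a collagen receptor of fibroblasts, rose by 1.71 ± 0.20 in TG (adjusted p 0.0101), where the difference in WT was 0.60 ± 0.20 (adjusted p 0.120). It read 6.92 and 5.72 under saline (WT, then TG), 7.53 and 7.51 with Ang-II in WT, and 7.25 and 7.61 with Ang-II in TG. The genotypes thus overlapped under Ang-II. The lone TG saline array lay near its lowest detected signal, 5.67, and the TG difference ranged from 0.87 to 1.89 over the alternatives. Sdc1, a heparan sulfate proteoglycan that binds fibronectin and tenascin, was not above background in WT saline and was at least 2.19-fold higher in WT Ang-II (adjusted p 0.0333, and 0.113 or 0.128 when either WT Ang-II array was left out). Sdc1 read 5.61 and 6.95 under saline (WT, then TG), 6.71 and 6.82 with Ang-II in WT, and 6.28 and 6.71 with Ang-II in TG. The lone saline arrays were thus its lowest and its highest. Lrp6, a WNT co-receptor that CCN2 binds, was lower in TG than in WT under Ang-II by at least 2.89-fold (adjusted p 0.00161). Its other kept probe differed there by 0.39 (adjusted p 0.496), so the direction for Lrp6 is uncertain. The further genes counted in this list were Stab1 and Bmp1, named after their values were seen: Stab1 rose by 1.11 in WT and 0.84 in TG, and Bmp1 rose by 0.74 in WT. Of the other kept Stab1 probes, ILMN_2544343 rose in both genotypes (1.52 and 1.10, adjusted p 0.0139 and 0.0374) and ILMN_2727432 passed in neither (0.52 and 0.23, adjusted p 0.147 and 0.509). Both other Bmp1 probes gave WT differences that did not pass (0.53 and 0.72, adjusted p 0.158 and 0.0762). The WT calls of Stab1 (adjusted p 0.0779 and 0.0861) and Bmp1 (0.114 and 0.154) were lost when either WT Ang-II array was left out, as was the TG call of Stab1 with any 1 Ang-II array left out (0.0638 to 0.0903). Leaving out either TG Ang-II array also ended the Bmp1 call (0.0599). Between genotypes under Ang-II, Itga5 was higher in TG (0.75, adjusted p 0.0329, and 0.0701 to 0.176 with any 1 Ang-II array left out) and Lrp6 was lower. Under saline 0 of 19 passed in limma (1 higher and 4 lower at an unadjusted p), and in the interaction only Itga5 did. The corresponding shares of all genes were 5.35% between genotypes with Ang-II, 0.163% between them with saline, and 1.26% for the interaction.

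Genes of the TGF-beta and YAP pathways, which regulate several members, were read through 14 of 20 genes. They include the TGF-beta ligands Tgfb1, Tgfb2 and Tgfb3 and the receptors Tgfbr1 and Tgfbr2, so the counts are not of targets alone. In WT, 2 rose and 0 fell (4 and 0 at an unadjusted p), with a median of 0.14. In TG, 5 rose and 0 fell (6 and 1 at an unadjusted p), with a median of 0.34. Of all genes, 8.72% passed in WT and 6.78% in TG in either direction, with medians of -0.05 and -0.06. Cthrc1, a secreted collagen triple helix protein of injured arteries, was not above background in either saline array. It was at least 8.57-fold higher with Ang-II in WT and at least 5.66-fold higher in TG (adjusted p 0.000921 and 0.00130). Cthrc1 was thus kept only through the Ang-II arrays, and the filter favours a rise for it. Nuak2, a kinase induced by YAP, was raised in both genotypes, by 1.04 ± 0.19 in WT (adjusted p 0.0305) and 1.24 ± 0.19 in TG (adjusted p 0.0208). Skil, a negative regulator of SMAD signalling, rose by 1.10 ± 0.16 in TG (adjusted p 0.0189), and the TG difference of 1.21 on its other kept probe did not pass (adjusted p 0.0525). In WT, Skil did not pass, but the Ang-II arrays (11.42 and 11.37) lay above the saline array (10.73). Both calls of Nuak2 were lost when either WT Ang-II array was left out (adjusted p 0.0947 and 0.120 in WT, 0.0517 in TG), and that of Skil without TG Ang-II 1 (0.0505) or when either WT Ang-II array was left out (0.0521). The TG call of Ankrd1 was lost with any 1 of the 4 Ang-II arrays left out (0.0606 to 0.0652). Ankrd1 read 9.98 and 10.73 under saline (WT, then TG), 10.15 and 10.09 with Ang-II in WT, and 11.61 and 11.68 with Ang-II in TG. This YAP target, which is also abundant in heart muscle, was 2.89-fold higher in TG than in WT under Ang-II (1.53 ± 0.12, adjusted p 0.00347), where Ccn1 was lower. It also rose in TG by 0.91 (adjusted p 0.0267). Its other kept probe passed in both comparisons (1.15 between genotypes and 0.76 in TG, adjusted p 0.00851 and 0.0431). Tgfb2, a TGF-beta ligand named after its values were seen, rose in TG by 0.95 (adjusted p 0.0497) and did not pass in WT. It read 9.56 and 9.21 under saline (WT, then TG), 10.25 and 10.42 with Ang-II in WT, and 10.33 and 9.99 with Ang-II in TG. All 4 Ang-II arrays lay above both saline arrays. The Tgfb2 call was lost without TG Ang-II 1 (0.101) or when either WT Ang-II array was left out (0.0938). Between genotypes under Ang-II, only Ankrd1 of the 14 genes passed (1 higher and 2 lower at an unadjusted limma p), against 5.35% of all genes. Amotl2, named after its values were seen, was lower in TG without passing. It read 7.48 and 7.86 with Ang-II in WT, and 6.30 and 7.06 with Ang-II in TG. Of the 14 genes, 0 passed under saline (2 higher and 1 lower at an unadjusted limma p) and 0 in the interaction (1 and 1). Over all genes these shares were 0.163% and 1.26%. The heart muscle markers were higher in the TG Ang-II arrays, and their part in the Ankrd1 difference was not tested.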

How the data were processed

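Total RNA of thoracic aorta was hybridised to 6 BeadChips. Per the file headers, the deposited columns hold each probe's mean bead intensity on a linear scale, not normalized, with its standard error over beads and its number of beads, and a detection p-value. The deposited value table holds log2 values, and no source used here gives its method. It differed by at most 5e-09 from the values computed here. The submitters' processing notes name GenomeStudio 2011.1 and limma 3.22.1. All deposited columns were mapped to a sample by name.

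The neqc function (limma 3.58.1, R 4.3.3) served for background correction, which used the detection p-values, and for quantile normalization, with an offset of 16. A probe stayed in if its detection p was under 0.01 on 2 or more of the 6 arrays. Symbols came from the platform annotation, updated through the RefSeq table of GRCm38.p6 by gene identifier: 34885 probes had 1 symbol, 18 several and 10378 none here. Group means of the 4 groups were fitted to all 6 arrays in limma (eBayes, 2 residual and 3.75 prior degrees of freedom, prior SD 0.15), with Benjamini-Hochberg adjustment over all kept probes. A gene was represented by its kept probe with the highest mean (9837 genes). A gene not above background in the dimmer group got a lower bound of its fold, the brighter group's mean over the dimmer group's mean of, on each array, the higher of the probe's value and the lowest detected signal.

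Named were all members, from each pathway list up to 4 genes that passed anywhere, largest fold first, and, with the exception below, the 3 genes of most similar profile for members spanning at least 1 on the log2 scale. The members and lists were chosen with earlier results of these data known. Alternatives were no background correction, an offset of 50, the deposited table, detection on all 6 arrays or no filter on detection, a trended robust prior, each Ang-II array left out, other probes, a fit of only the 4 Ang-II arrays, and a replicate block. They were run for pathway genes after seeing the data. The deposited table repeats the main values, so its outcome in each tally of alternatives was fixed in advance. Between genotypes under Ang-II, so was that of the fit of only the 4 Ang-II arrays, since the spread comes from these arrays alone. In simulated data the fit returned the sizes of change it was given on average, but among the smaller changes it made calls only in the average response. The number of arrays limits the precision. A gene with a similar profile is not reported here.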

Additional observations from a re-analysis of the deposited data

Results flagged for a closer look

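The responses of Itga5, the alpha subunit of the main fibronectin receptor, to Ang-II differed between genotypes by the test of the interaction: the TG response exceeded the WT response by 1.70 ± 0.22 on the log2 scale (adjusted p 0.0368 in limma). The difference was -0.92 in WT and 0.79 in TG. The call passed in 5 of 11 alternatives. It was lost with any 1 Ang-II array left out (adjusted p 0.0585 to 0.162), with no detection filter (0.0819) and under the replicate block (0.0547). A second Itga5 probe gave 2.03 ± 0.25 (adjusted p 0.0315). No group had 4 or more arrays, so no array was tested as standing apart within its group.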

How the results depend on the processing

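Member probes called numbered 6 (WT response), 7 (TG response), 9 (average response), 4 (genotypes compared under Ang-II), 0 (genotypes compared under saline) and 0 (interaction). Without the detection filter they were 3 in WT and 2 in TG. Leaving out any 1 Ang-II array gave 1 to 6 in WT, 1 to 2 in TG, 5 to 8 for the average, and 1 to 3 for TG against WT under Ang-II. Without background correction they were 1 under saline and 3 in the interaction, with an offset of 50 they were 3 in the interaction, with detection on all 6 arrays 1 in the interaction, and with a trended robust prior 2 under saline and 4 in the interaction. The same-numbered Ang-II arrays correlated at 0.1153 in their deviations over only 2 pairs and share no more than a number. With the number as a replicate block the calls were 4, 5, 8, 4, 0 and 0 in the order above. Chip was not run as a block, since no header names it.

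Over all probes, calls in WT were 1518 (1063 rises), 2939 (1641 rises) without background correction, 3015 with a trended robust prior, 2323 with an offset of 50, 781 with no filter and 224 to 1631 with an array left out. For TG they numbered 1268 (604 to 2303 over the alternatives), for the average 3209 (1641 to 4771), for TG against WT 885 (142 to 1868) with Ang-II and 31 (1 to 735) with saline, and for the interaction 199 (28 to 775).

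Directions that reversed were on other probes of a gene, apart from near-zero interactions on the brightest probes of Tnc (-0.044 to 0.0408 with an array left out, 0.0035 without TG Ang-II 1) and Thbs3 (-0.12 to 0.0206). Other Postn probes gave 0.23 and 0.59 in WT, 0.84 and 0.40 in TG, 0.54 and 0.50 for their average, -0.30 between genotypes with Ang-II, -0.57 and -0.11 under saline and -0.19 in the interaction. Other Tnc probes gave -0.35 in TG and 0.63 and 0.64 under saline. Other Sparc probes gave -0.11 and -0.59 under saline and 0.33 in the interaction. Another Thbs3 probe gave 0.19 in the interaction, and another Ccn2 probe -0.19 in WT and -0.0487 in the average. The cause was not tested. The member results reversed under none of the normalizations, filters and priors tried. Signals of Thbs1 in saline and of 1 Tnc and 1 Postn probe were near background, and Ccn2 was at the ceiling.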
